A study of Mus musculus with 27 samples.

Results

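Retromer is the complex that lifts receptors and other membrane cargo out of endosomes and returns them to the Golgi or the cell surface. Its core is a trimer of VPS35, VPS29 and 1 of the alternative subunits VPS26A or VPS26B. It is brought to the endosome by RAB7 and by the sorting nexins SNX3 and SNX27, and TBC1D5 switches RAB7 off again. In neurons the pathway carries amyloid precursor protein, its sorting receptor SORL1 and glutamate receptors, and low retromer levels have been linked to Alzheimer's disease. R33 and R55 are pharmacological chaperones made to stabilise the VPS35-VPS29 contact, so the genes of the complex they bind were examined here: *Vps35*, *Vps26a*, *Vps26b*, *Vps29*, *Rab7*, *Tbc1d5*, *Snx3* and *Snx27*. They were chosen by name, as the genes of the core trimer and of the factors that recruit or release it. The table spells symbols in lower case, and the rows vps35, vps26a, vps26b, vps29, rab7, tbc1d5, snx3 and snx27 were all found among its 26264 symbols. All 8 passed the filter on low values (a mean FPKM of 1 or more), as 12976 genes did in all, and were tested.

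Cortex of female 5xFAD mice on a C57BL6 background was sequenced at 16 weeks of age, 24 h after a microinjection into the lateral parietal associative cortex of 1 hemisphere. Mice received vehicle (4 mice: J, L, M and AH), R33 (5 mice: K, N, O, AD and AE) or R55 (5 mice: P, Q, R, AA and AB). Both compounds were given as 10 mM solutions, and the vehicle was the same DMSO and cyclodextrin solution, with 3% DMSO, without a compound. A block of about 1 cubic mm was taken from the injected and from the contralateral hemisphere, and each block gave 1 library. Of mouse AE only the injected hemisphere was used, which leaves 27 libraries of 14 mice and 13 mice with both hemispheres. Every mouse carried the 5xFAD transgenes, mutant human amyloid precursor protein and presenilin 1 driven by the Thy1 promoter and so expressed mainly in neurons, and no wild-type or uninjected mouse was part of the comparison. All mice were of 1 sex, 1 age and 1 time after injection.

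The libraries held 15932197 to 38077031 fragments on genes. The members were counted deeply, from 970 fragments for *Tbc1d5* in its lowest library to 9386 for *Rab7* in its highest. Markers of neurons summed to 2016 to 3226 FPKM per library, those of astrocytes to 253 to 947, those of oligodendrocytes to 478 to 2360 and those of microglia to 103 to 250, with none of these markers at 0 in any library, so these cell types were all present. Of the 5 red blood cell markers, 4 were listed at 0 in every library, and the 5 markers of striatal neurons, which lie below the cortex, summed to 31.7 to 206 FPKM.

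Levels could be set in order because FPKM are scaled per kilobase of gene. Averaged over the 14 mice, *Snx3* was highest at 119 FPKM ± 10.8 (SD, n = 14), which puts it in the top 3.66% of tested genes. *Rab7* followed at 101 FPKM ± 4.68 and *Vps35* at 57.8 ± 4.36 (SD, n = 14 each). *Vps29* stood at 33.5 FPKM ± 3.46, *Snx27* at 23.99 ± 1.27, *Vps26a* at 22.3 ± 1.32, *Vps26b* at 21.7 ± 0.817 and *Tbc1d5*, the lowest, at 9.56 ± 0.990 (SD, n = 14 each). The most abundant transcripts were thus those of the recruiting factors *Snx3* and *Rab7*, and the transcript of the RAB7-inactivating protein TBC1D5 was 10.5-fold lower than that of *Rab7*.

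Most of this order held in every library. *Snx3* exceeded *Rab7* in 27 of 27 libraries, although the ranges of the mouse means overlapped. *Rab7* and *Vps35* did not overlap, nor did *Vps35* and *Vps29*, nor *Vps26b* and *Tbc1d5*. *Vps29* exceeded *Snx27* in 27 of 27 libraries with overlapping ranges. *Snx27* exceeded *Vps26a* in 22 of 27 libraries, and *Vps26a* exceeded *Vps26b* in 14 of 27, so neither neighbour in these 2 pairs differs from the other beyond its spread. *Snx27* exceeded *Vps26b*, 2 places below it, in 25 of 27 libraries and in 13 of 14 mice, with overlapping ranges. Within the core trimer, *Vps35* was 2.59-fold above *Vps26a* and 1.72-fold above *Vps29* at the level of RNA.

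**Figure D1:**
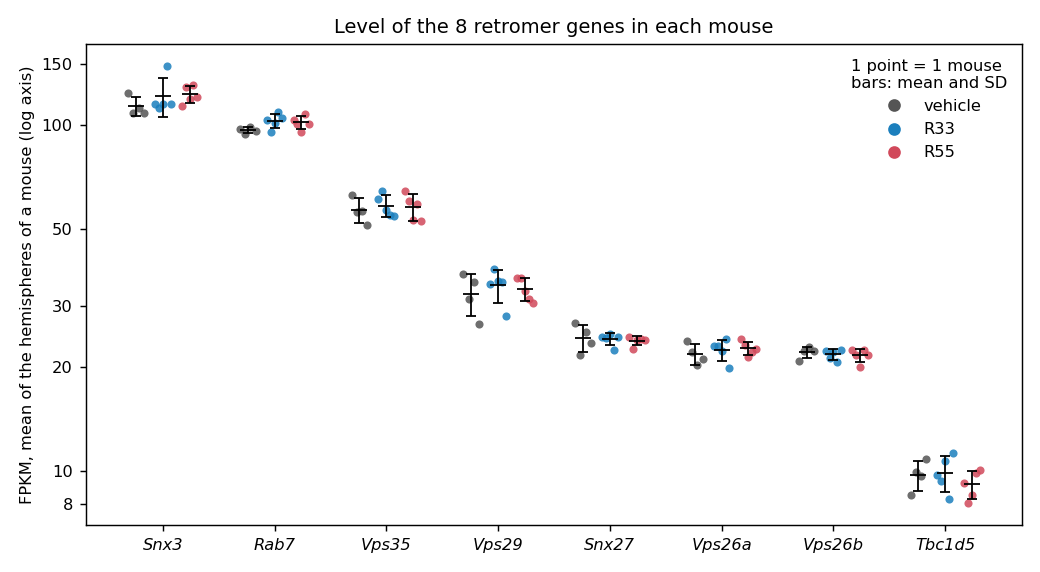
FPKM (log axis) of the 8 retromer genes in each mouse, as the mean of its hemispheres, for 4 vehicle, 5 R33 and 5 R55 mice, with the mean and SD of each group. Genes are ordered by level from *Snx3* (119 FPKM) to *Tbc1d5* (9.56 FPKM), and the 3 groups overlap for every gene.

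*Vps26a* and *Vps26b* encode the arrestin-like subunits that take the same place in the trimer. Their promoter windows are shown because the transcripts sat at nearly the same level although the genes lie on different chromosomes. *Vps26a* lies on chr10:62290543-62322703 and *Vps26b* on chr9:26915799-26941923, both on the minus strand of GRCm39. The windows below run from 250 bases before to 50 bases after an annotated start and come from RefSeq on the older build GRCm38.p6, chr10:62486756-62487055 for *Vps26a* (the first of its 2 listed windows) and chr9:27030045-27030344 for *Vps26b*, both on the minus strand. Capitals mark the E-box CACGTG.
Vps26a: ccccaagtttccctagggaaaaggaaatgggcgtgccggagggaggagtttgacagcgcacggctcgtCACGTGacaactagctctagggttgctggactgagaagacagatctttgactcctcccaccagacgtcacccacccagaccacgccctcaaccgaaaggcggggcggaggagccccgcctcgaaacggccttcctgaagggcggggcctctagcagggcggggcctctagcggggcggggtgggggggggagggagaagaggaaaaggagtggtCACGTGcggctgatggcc
Vps26b: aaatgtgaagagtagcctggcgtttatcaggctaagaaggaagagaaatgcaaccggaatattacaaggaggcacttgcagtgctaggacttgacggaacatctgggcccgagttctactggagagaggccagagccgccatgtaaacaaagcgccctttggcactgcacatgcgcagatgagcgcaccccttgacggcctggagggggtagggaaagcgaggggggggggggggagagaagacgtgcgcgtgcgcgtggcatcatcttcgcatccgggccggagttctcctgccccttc
CACGTG reads the same on both strands and is the core of the sites to which basic helix-loop-helix factors such as the lysosomal regulator TFEB bind. The *Vps26a* window held CACGTG 2 times, with first bases at -182 and 32 from the start, and the *Vps26b* window held none. Windows were available for 6 of the 8 members, namely *Vps26a*, *Vps26b*, *Vps29*, *Rab7*, *Tbc1d5* and *Snx3*. CACGTG was present for 2 of these 6, *Vps26a* and *Tbc1d5*, against 8.09% of 27025 genes and 7.15% of 32851 windows in all. These are matches of letters in 1 stretch of reference sequence and say nothing of binding in these mice.

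The log2 ratio of *Vps26b* to *Vps26a* within a mouse averaged -0.03 ± 0.12 (SD, n = 14), a ratio of 0.977. By treatment the mean log2 ratio was 0.02 ± 0.16 in vehicle mice (n = 4), -0.04 ± 0.15 after R33 (n = 5) and -0.06 ± 0.05 after R55 (n = 5). The differences between these means were smaller than the SD over vehicle mice. *Vps26b* (6873 bp) is longer than *Vps26a* (3252 bp), and the trend on gene length described below was not removed from these ratios. With it removed, the log2 fold changes after R55 were 0.06 for *Vps26b* and 0.04 for *Vps26a*. In single libraries the log2 ratio ran from -0.44 to 0.20, and *Vps26b* was the higher paralog in 13 of 27 libraries.

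The members differed in the spread of their levels between mice. The tested genes they were set against were not matched to them in level or length. The pooled SD of the log2 level between mice of the same treatment was 0.06 for *Vps26b*, and only 1.21% of tested genes had a smaller one. For *Rab7* it was also 0.06, with 1.50% of tested genes below it. *Snx27* at 0.08 and *Vps26a* at 0.09 were tight as well, with 8.02% and 11.3% of tested genes below them. *Vps35* (0.11) and *Snx3* (0.12) had 29.6% and 33.5% of genes below them, and *Tbc1d5* (0.14) and *Vps29* (0.16), at 47.5% and 57.7%, varied like a typical tested gene.

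The main question was whether treatment with a retromer chaperone went with a change in the RNA of the complex itself. No such change was detected. In the comparison of R55 with vehicle, 0 of 8 members were called at an adjusted p-value under 0.05, where 1 of 12976 tested genes was called (0.00771%). None of the 8 reached an unadjusted p under 0.05 either, where 8.45% of tested genes did. For R33 against vehicle, 0 of 8 members were called, as were 0 of 12976 genes (0%), and 0 of 8 were under an unadjusted 0.05, against 5.87% of genes. The fit was made with limma on log2(FPKM + 1) with treatment and hemisphere as factors, and limma voom on the fragments behind the FPKM also called 0 of 8 in both comparisons. The 2 hemispheres of a mouse entered this fit as separate libraries, and fits with 1 value per mouse are given where they bear on a value. In a block of bulk tissue, fewer cells of a type and less RNA per cell cannot be told apart.

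How large a change could have gone unseen is given by the 95% intervals of the 8 members together. With 1 value per mouse they spanned -17.5% to 22.6% of the vehicle level after R55 and -11.8% to 22.95% after R33. The fit on 27 libraries, which enters the hemispheres of a mouse separately, gave narrower spans. These were -14.4% to 19.7% after R55 and -10.3% to 22.1% after R33. The log2 fold changes after R55 ran from -0.08 for *Tbc1d5* to 0.11 for *Snx3*, with 5 members positive and 3 negative. Their median of 0.04 lay beside 0.03 for all tested genes, of which 60.2% were positive. After R33 the members ran from -0.02 to 0.11, again 5 positive and 3 negative, with a median of 0.05 beside 0.02 for all tested genes. R55 and R33 were compared with the same 4 vehicle mice, so these values are not independent of each other.

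**Figure D2:**
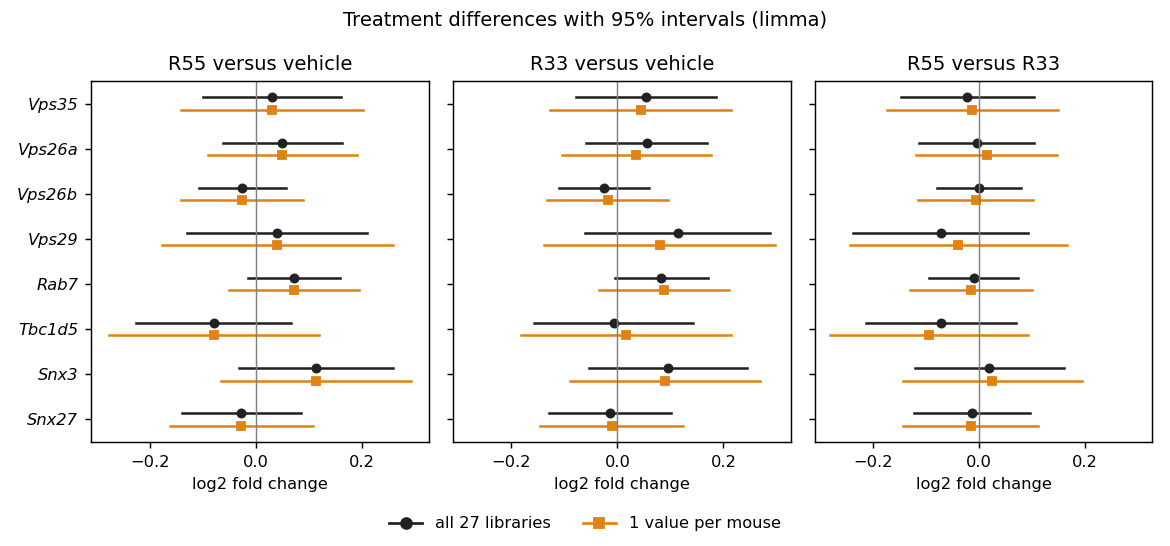
Log2 fold change (x axis) of each retromer gene with its 95% interval from limma, for R55 against vehicle, R33 against vehicle and R55 against R33. Black circles are from the fit on 27 libraries and orange squares from 1 value per mouse, and every interval crosses 0.

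*Vps35* (chr8:85986024-86026431, minus strand) encodes the long solenoid on which the trimer is built. In vehicle mice it was at 62.9 FPKM in J, 56.1 in L, 56.3 in M and 51.5 in AH. Mice given R33 had 61.3 FPKM in K, 64.4 in N, 56.9 in O, 55.1 in AD and 54.6 in AE. Those given R55 had 64.7 in P, 60.2 in Q, 53.2 in R, 59.3 in AA and 52.7 in AB. The 3 groups lay over each other, with 1 mouse of each compound above the highest vehicle mouse and none below the lowest. The log2 fold change was 0.03 (SE 0.06) after R55, with a 95% interval from -6.60% to 11.8% and an adjusted p of 0.870 in limma. After R33 it was 0.05 (SE 0.06), with an interval from -5.33% to 13.8% and an adjusted p of 0.886. With 1 value per mouse the intervals of *Vps35* were from -9.24% to 15.02% after R55 and from -8.43% to 16.04% after R33.

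*Vps29* (chr5:122492420-122503047, plus strand) encodes the small phosphatase-like subunit that binds the far end of VPS35 and makes up the other side of the contact the compounds were designed for. Vehicle mice had 37.0 FPKM in J, 31.5 in L, 35.2 in M and 26.6 in AH. After R33 the values were 34.8 in K, 38.4 in N, 35.5 in O, 35.2 in AD and 28.1 in AE. After R55 they were 36.1 in P, 36.0 in Q, 33.2 in R, 31.4 in AA and 30.5 in AB. The lowest values, in AH and AE, were 1 vehicle and 1 R33 mouse, and no R55 mouse lay outside the vehicle range. *Vps29* had the widest interval after R33, from -4.11% to 22.1%, around a log2 fold change of 0.11 (SE 0.08, limma adjusted p = 0.850). Without vehicle mouse AH this log2 fold change was 0.02, and over all fits that left out 1 mouse it ran from 0.02 to 0.18. After R55 the log2 fold change was 0.04 (SE 0.08), between -8.57% and 15.8% (limma adjusted p = 0.869). The intervals of *Vps29* with 1 value per mouse were from -11.6% to 19.7% after R55 and from -9.13% to 22.95% after R33.

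For *Vps26a*, vehicle mice ranged from 20.2 to 23.8 FPKM (21.8 ± 1.52, SD, n = 4), R33 mice from 19.8 to 23.996 (22.4 ± 1.59, n = 5) and R55 mice from 21.4 to 24.01 (22.6 ± 0.995, n = 5). Its paralog *Vps26b* ranged from 20.8 to 22.8 FPKM in vehicle mice (21.99 ± 0.855, n = 4), from 20.6 to 22.4 after R33 (21.7 ± 0.772, n = 5) and from 19.99 to 22.4 after R55 (21.6 ± 0.968, n = 5). The groups overlapped almost fully for both genes. After R55 the log2 fold change was 0.05 (SE 0.05) for *Vps26a* and -0.03 (SE 0.04) for *Vps26b*, with limma adjusted p-values of 0.749 and 0.833. After R33 the log2 fold changes were 0.06 (SE 0.06) and -0.02 (SE 0.04), with limma adjusted p-values of 0.872 and 0.912. The intervals for *Vps26b* were the tightest of the set, from -7.19% to 4.07% after R55 and from -7.30% to 4.24% after R33.

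*Rab7* (chr6:87976083-88022295, minus strand) encodes the late endosomal GTPase that recruits the trimer. It had the smallest p of the members in the fit on 27 libraries for both compounds, although for R55 another member had a smaller one under several alternatives, such as *Snx3* with 1 value per mouse. Vehicle mice were close together, at 97.7 FPKM in J, 94.6 in L, 98.7 in M and 95.9 in AH. With R33 the values were 104 in K, 95.3 in N, 102 in O, 109 in AD and 105 in AE. With R55 they were 104 in P, 101 in Q, 95.8 in R, 108 in AA and 101 in AB. Thus 4 of 5 R33 mice and 4 of 5 R55 mice were above every vehicle mouse, while mouse N of the R33 group and mouse R of the R55 group were inside the vehicle range. The groups therefore overlapped, as they did for all 8 members, and 2.44% of tested genes had no overlap between R55 and vehicle mice and 0.709% none between R33 and vehicle mice. How many tested genes had 4 of 5 mice beyond the vehicle range was not counted. The log2 fold change of *Rab7* was 0.07 after R55 (SE 0.04, limma adjusted p = 0.607) and 0.08 after R33 (SE 0.04, limma adjusted p = 0.834). In percent the intervals ran from -0.929 to 11.6 after R55 and from -0.358 to 12.6 after R33. With 1 value per mouse the intervals were wider, from -3.39 to 14.5% after R55 and from -2.36 to 15.7% after R33, with limma adjusted p-values of 0.918 and 0.995.

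The mice fell into those labelled with 1 letter and those labelled with 2 letters, a difference whose meaning the labels do not give. Among the 3 R55 and 3 vehicle mice with 1 letter, *Rab7* differed by 0.04 on the log2 scale, and between the 2 R55 mice and the single vehicle mouse with 2 letters it differed by 0.12. For R33 the corresponding differences were 0.05 and 0.16. The direction was the same in both sets, but the set with 2 letters rests on the single vehicle mouse AH. With the label length as a covariate the log2 fold change of *Rab7* was 0.06 after R55 and 0.08 after R33.

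*Tbc1d5* (chr17:51038084-51486423, minus strand) encodes the GTPase-activating protein that ends the RAB7 signal. Vehicle mice had 8.48 FPKM in J, 9.89 in L, 9.67 in M and 10.8 in AH. R33 mice had 9.73 in K, 9.35 in N, 10.7 in O, 8.26 in AD and 11.3 in AE. R55 mice had 9.18 in P, 8.06 in Q, 8.51 in R, 9.87 in AA and 10.1 in AB. Only mouse Q of the R55 group was below the vehicle range. The log2 fold change after R55 was -0.08 (SE 0.07, limma adjusted p = 0.700), the lowest of the 8, with an interval from -14.4% to 4.72%. After R33 it was -0.01 (SE 0.07, limma adjusted p = 0.988). *Rab7* and its inactivator had opposite signs after R55, and neither difference passed the test.

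*Snx3* (chr10:42378026-42427233, plus strand) encodes the lipid-binding sorting nexin that loads retromer onto early endosomes. In vehicle mice it was at 124 FPKM in J, 108 in L, 112 in M and 109 in AH. The R33 group had 115 in K, 112 in N, 115 in O, 148 in AD and 115 in AE, and mouse AD thus stood far above the other 4. The R55 group had 114 in P, 129 in Q, 119 in R, 131 in AA and 121 in AB, of which 2 were above every vehicle mouse. *Snx3* had the largest log2 fold change of the members after R55, at 0.11 (SE 0.07, limma adjusted p = 0.622), with an interval from -2.12% to 19.7%. After R33 it was 0.10 (SE 0.07, limma adjusted p = 0.850), and without mouse AD it was 0.01 (limma adjusted p = 0.9996). The interval of *Snx3* after R55 was from -4.44% to 22.6% with 1 value per mouse.

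*Snx27* (chr3:94399419-94490078, minus strand) encodes the PDZ-domain sorting nexin that directs receptors such as glutamate receptors back to the plasma membrane. Its mouse means were 21.6 to 26.8 FPKM after vehicle (24.2 ± 2.20, SD, n = 4), 22.3 to 24.9 after R33 (24.03 ± 0.991, n = 5) and 22.5 to 24.3 after R55 (23.8 ± 0.707, n = 5). Every mouse given a compound lay inside the vehicle range. The log2 fold change was -0.03 (SE 0.05) after R55 and -0.01 (SE 0.06) after R33, with limma adjusted p-values of 0.872 and 0.969.

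The compounds were compared with each other at the same dose and time, over the 8 genes and with p-values adjusted over all 12976 tested genes. No difference between R55 and R33 was detected for any member. With limma 0 of 8 were called where 0% of tested genes were called, and 0 of 8 had an unadjusted p under 0.05 where 1.15% of tested genes did. The voom form of limma called 0 of 8 as well. The mouse means of R55 and R33 overlapped for all 8 members, and 0.0848% of tested genes had no overlap. The differences ran from -0.07 (*Vps29*) to 0.02 (*Snx3*) on the log2 scale, and every limma adjusted p was 0.9998. The intervals were from -5.42% to 5.69% for *Vps26b*, from -6.31% to 5.19% for *Rab7*, from -9.77% to 7.39% for *Vps35* and from -15.2% to 6.59% for *Vps29*. The whole set of intervals spanned -15.2% to 11.7%. With 1 value per mouse the interval of *Vps35* was from -11.4% to 10.8%.

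The injection was made on 1 side only, so the hemispheres of a mouse give a second comparison. No difference between injected and contralateral tissue was detected for any member. In the fit of treatment and hemisphere, which has no mouse term, the log2 fold changes ran from -0.06 (*Vps29*) to 0.04 (*Tbc1d5*). There 0 of 8 were called where 0% of tested genes were called. An unadjusted p under 0.05 was reached by 0 of 8, against 3.47% of tested genes, and limma voom called 0 of 8 too. With the mouse as a replicate block, which pairs the sides, the log2 fold changes ran from -0.04 (*Vps29*) to 0.03 (*Rab7*). The intervals of that fit spanned -10.4% (*Vps29*) to 9.28% (*Snx3*), and 0 of 8 were called. Within the 13 mice with both hemispheres, *Rab7* differed by 0.03 ± 0.08 (SD of the differences, n = 13) and was higher on the injected side in 8, *Vps26b* by 0.02 ± 0.09 and was higher in 9, and *Vps35* by 0.02 ± 0.13 and was higher in 7. By the SD of the differences, *Vps29* varied most between the sides of a mouse (0.21, from -0.35 to 0.27), followed by *Snx3* (0.17, from -0.35 to 0.34), and *Rab7* and *Vps26b* varied least.

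Treatment differences were also fitted in each hemisphere alone. In the injected hemisphere, 0 of 8 members were called for either compound (0% of tested genes for each), and 0 of 8 had an unadjusted p under 0.05, against 1.09% of tested genes for R55 and 1.84% for R33. In the contralateral hemisphere 0 of 8 were called for R55 or R33 (0% of tested genes for each). There, 1 of 8 members, *Snx3*, had an unadjusted p under 0.05 for R55, where 11.5% of tested genes did. For R33 0 of 8 did, where 2.96% of tested genes did.

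Contralateral *Snx3* was at 128 FPKM in J, 101 in L, 108 in M and 104 in AH after vehicle, and at 116 in P, 145 in Q, 119 in R, 132 in AA and 127 in AB after R55. The R55 mice were above 3 of the 4 vehicle mice, and mouse J lay among them. The log2 fold change was 0.21 (SE 0.10, limma adjusted p = 0.427), with an interval from 0.278% to 34.3%. Over the 14 fits that each left out 1 mouse, its adjusted p in limma ran from 0.164 without J to 0.667 without L, and without mouse Q the log2 fold change was 0.17. In the injected hemisphere the log2 fold change of *Snx3* after R55 was 0.01 (SE 0.10).

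A pattern noticed in the values of each mouse concerned *Snx3* on the 2 sides. After R33 its level was higher on the injected side in 4 of 4 mice, by 0.03 in K, 0.15 in N, 0.02 in O and 0.34 in AD on the log2 scale. After R55 it was lower on the injected side in 5 of 5 mice, with differences of -0.04 in P, -0.35 in Q, -0.0014 in R, -0.04 in AA and -0.15 in AB. Vehicle mice had -0.09 in J, 0.20 in L, 0.12 in M and 0.12 in AH. The R33 and R55 mice did not overlap, as for 3.48% of tested genes, and mice O and R both lay close to 0. The interaction of compound and hemisphere was -0.22 (SE 0.13, limma adjusted p = 0.875), in a fit where 0% of tested genes were called and 4.43% had an unadjusted p under 0.05. *Snx3* was not among the latter. With the mouse as a replicate block it was -0.25, with an interval from -28.1% to -2.16% (limma adjusted p = 0.403), and *Snx3* had an unadjusted p under 0.05, as did 11.7% of tested genes in that fit, of which 0% were called. This contrast was added after the values had been seen, and it did not pass adjustment over all genes in either fit. For the interactions of R55 and of R33 with hemisphere against vehicle, 0 of 8 members were called, with 0% of tested genes called in each, and 0 of 8 had an unadjusted p under 0.05, against 1.84% of tested genes for R55 and 0.378% for R33.

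**Figure D3:**
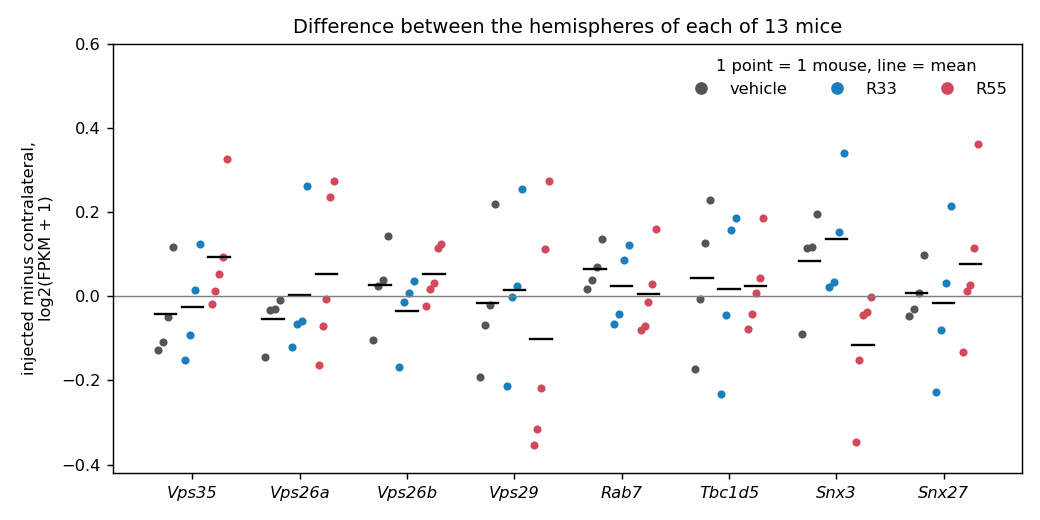
Injected minus contralateral difference in log2(FPKM + 1) (y axis) for each retromer gene in 13 mice, coloured by treatment, with a line at the mean of each group. For *Snx3* all 4 R33 mice lie above 0 and all 5 R55 mice below it, and for the other genes the groups overlap.

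A property of the libraries moved with several of these values. In each library, the deviation of the tested genes outside the members from their mean over libraries was set against gene length. Spearman's rho over these genes describes how far long genes are high or low in the library. This rho ran from -0.70 in the contralateral library of R55 mouse Q and -0.69 in the injected library of R33 mouse AD to 0.41. Its median was 0.20 in injected and 0.32 in contralateral vehicle libraries, 0.13 and 0.15 after R33, and 0.14 and -0.33 after R55. In the contralateral R55 libraries it was -0.70 in Q, -0.44 in AB and -0.33 in AA, but 0.05 in R and 0.18 in P, so 3 of 5 held relatively more of short transcripts. *Snx3* is the shortest member, with 1377 bp as the authors counted it, shorter than all but 13.4% of tested genes. Over the 27 libraries its log2 level correlated with rho at r = -0.89, and at -0.83 over the 25 libraries left without those of Q and AD named above. *Rab7* (2622 bp) had r = -0.55, *Vps35* (3196 bp, near the median gene length of 3149 bp) had 0.08, and the long *Vps26b* (6873 bp), *Tbc1d5* (5902 bp) and *Snx27* (6263 bp) had 0.58, 0.52 and 0.48. Over the 25 libraries r was -0.42 for *Rab7*, 0.40 for *Vps26b*, 0.21 for *Tbc1d5* and 0.04 for *Snx27*, so for *Tbc1d5* and *Snx27* most of it rested on those 2 libraries. These r are a description, since the libraries share mice. The rho was computed without the members.

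**Figure D4:**
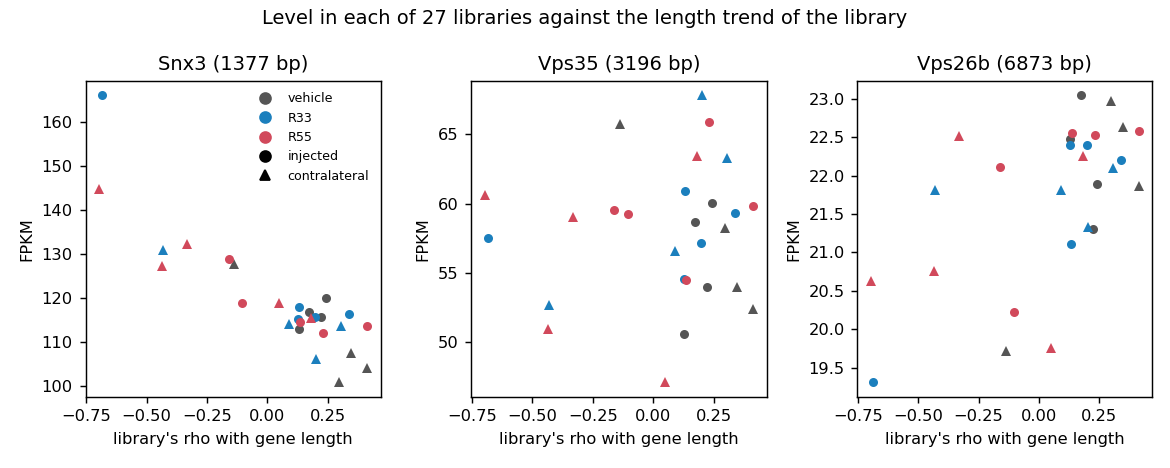
FPKM of *Snx3*, *Vps35* and *Vps26b* (y axes, which do not start at 0) in each of 27 libraries against the library's Spearman rho between the deviation of genes and their length (x axis), with treatment as colour and hemisphere as symbol. *Snx3* (1377 bp) falls with rho (r = -0.89), *Vps35* (3196 bp) does not move with it (0.08), and *Vps26b* (6873 bp) rises (0.58).

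When the trend on length was removed from each library, *Snx3* differed from vehicle by 0.05 after R55 and 0.04 after R33, with limma adjusted p-values of 0.780 and 0.945. *Rab7* differed by 0.05 and 0.06, with limma adjusted p-values of 0.785 and 0.945. The long genes moved the other way: *Vps26b* went to 0.06 and 0.05 and *Snx27* to 0.04 and 0.04, now above 0, and *Tbc1d5* to -0.02 and 0.04. The difference between R55 and R33 in the *Snx3* hemisphere values became -0.10 on the log2 scale, with a limma adjusted p of 0.984. *Vps35* (0.02 and 0.05) and *Vps26a* (0.04 and 0.05) kept their signs. No member was called with or without the trend, and the signs of the small differences of *Vps26b* and *Snx27*, of *Tbc1d5* after R33, and of *Vps26b* between R55 and R33 depend on it. The trend was not balanced over the groups, with a median rho of 0.32 in contralateral vehicle and -0.33 in contralateral R55 libraries. Its removal therefore also takes out any treatment difference that runs with gene length. Where the trend comes from was not tested.

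The members' levels were also compared with one another over the 14 mice. Among the core genes, *Vps35*, *Vps26a* and *Vps29* were positively correlated: *Vps35* with *Vps29* at r = 0.75, *Vps26a* with *Vps29* at 0.63 and *Vps35* with *Vps26a* at 0.60. Within treatments these were 0.74, 0.63 and 0.59. The alternative core gene *Vps26b* stood outside this group, with r = 0.08 to *Vps35*, -0.29 to *Vps29* and -0.38 to *Vps26a*, and was closest to *Tbc1d5* at 0.68. How many of all tested genes reach such r with a core gene was not counted. The 3 genes outside the members closest to *Vps35* had 0.91 to 0.93. *Rab7* was closest to *Snx3* at 0.67 and near 0 with *Tbc1d5* (-0.0040). In the differences between hemispheres, which leave out what the sides of a mouse share, r was 0.67 for *Vps35* with *Vps26a*, 0.57 for *Vps35* with *Vps29* and 0.44 for *Vps26a* with *Vps29*. Pairs outside the trimer had like values there, 0.61 for *Vps29* with *Rab7*, 0.60 for *Vps29* with *Snx3* and 0.56 for *Vps26a* with *Rab7*. The strongest values there were opposite moves, -0.84 for *Vps26b* with *Snx3* and -0.76 for *Rab7* with *Snx27*. Each of these pairs joins a shorter with a longer gene, as does *Vps29* with *Tbc1d5* (-0.73). In every treatment *Vps35*, *Vps26a* and *Vps29* were lower in the mice with 2 letters in their label than in those with 1. Among R55 mice the mean log2 levels were 5.83 against 5.91, 4.54 against 4.57 and 4.99 against 5.17, in that order. How much of r rests on this label difference was not tested. The points also share libraries, depth and the length trend described above, so the values are descriptive.

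**Figure D5:**
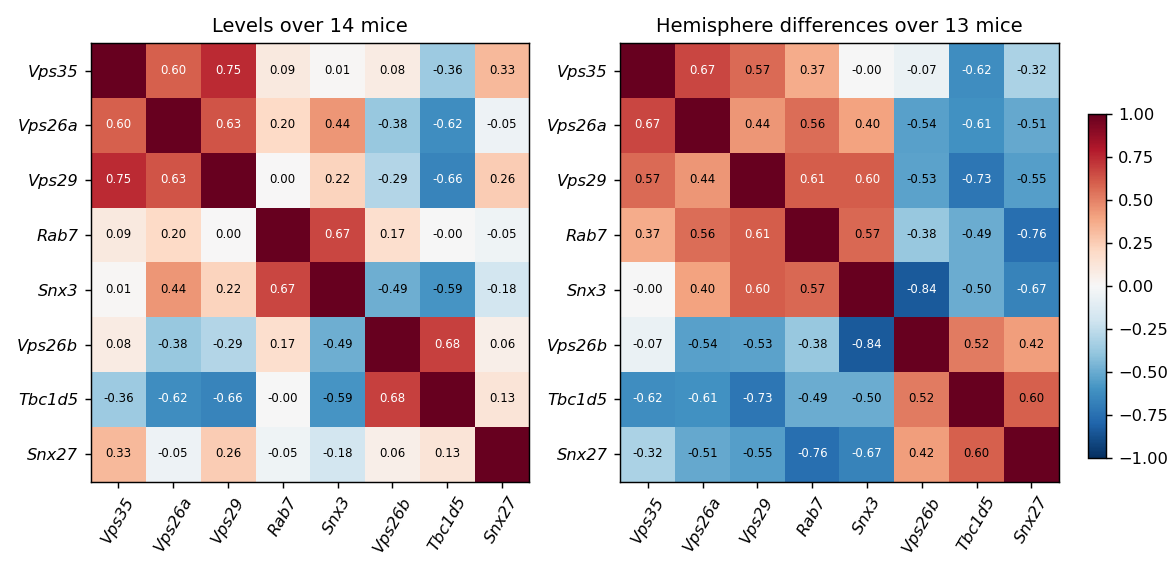
Pearson's r between the 8 retromer genes, of log2(FPKM + 1) over the means of 14 mice (left) and of the injected minus contralateral differences over 13 mice (right). *Vps35*, *Vps26a* and *Vps29* form a positive block (0.60 to 0.75 on the left), and *Vps26b* lies with *Tbc1d5* (0.68).

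For 3 members, the tested genes with the most similar pattern over the 14 mice were listed. Those closest to *Vps35* were *Abce1* (r = 0.93), *Rundc3b* (0.92) and *Spryd7* (0.91), where the median tested gene had 0.12. Those closest to *Vps26b* were *Runx1t1* (0.88), *Gatad2b* (0.87) and *St8sia1* (0.86), against a median of -0.07. Those closest to *Rab7* were *Frg1* (0.93), *Ywhae* (0.89) and *Gadd45a* (0.89), against 0.12. The 3 genes nearest to *Vps26b* were long (7742 to 8995 bp) and the 3 nearest to *Rab7* short (1088 to 2078 bp), so length is shared in both lists. Each list is the top of 12968 genes, where high values arise by selection.

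The wider pathway gave the same result at the level of calls. Retriever and the CCC complex recycle cargo of SNX17 from endosomes by a trimer related to retromer. They had 14 of 14 genes tested and 0 called with limma in either direction after R55. Of the 14, 13 were positive, against 60.2% of all tested genes, with a median log2 fold change of 0.07 beside 0.03. In the contralateral hemisphere alone 13 of 14 were positive (median 0.15), against 60.9% of all tested genes (median 0.05). In the injected hemisphere 8 of 14 were (median 0.02), against 54.8% (median 0.01). The trend on gene length was not removed from these counts and medians, nor from those of the lists described next. Its median rho was 0.32 in contralateral vehicle and -0.33 in contralateral R55 libraries. How far the counts and medians go with this trend was not tested. In the fit on 27 libraries, an unadjusted p under 0.05 after R55 was reached by 1 of these 14. For the lists described next it was 0 of 10, 2 of 6, 1 of 15 and 2 of 10 tested genes, in that order, against 8.45% of all tested genes. *Vps26c* was counted both in these 14 and in the 6. With 1 value per mouse the unadjusted limma p was 0.051 for *Vps26c*, 0.095 for *Dnajc13*, 0.094 for *Rilpl1* and 0.018 for *Sorl1*, which are described below. After R33 0 were called, again with 13 positive, against 57.5% of all tested genes, and the median was 0.09 beside 0.02. An unadjusted p under 0.05 after R33 was reached by 1 of these 14. For the lists described next it was 1 of 10, 1 of 6, 0 of 15 and 1 of 10, against 5.87% of all tested genes. The share of all tested genes called was 0.00771% after R55 and 0% after R33, for this list and the next ones. *Vps26c*, the retriever subunit related to *Vps26a*, was at 12.7 FPKM ± 1.14 (SD, n = 4) in vehicle and 14.2 ± 0.849 (n = 5) in R55 mice, a log2 fold change of 0.16 (SE 0.06, limma adjusted p = 0.552) that was 0.13 with the length trend removed. *Commd5*, a CCC subunit, differed by 0.14 (SE 0.08, limma adjusted p = 0.606) and by 0.06 with the length trend removed.

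The sorting nexins with BAR domains, which bend the membrane into tubules, and the WASH complex, which builds actin on endosomes, had 10 of 10 genes tested and 0 called after R55 or R33. Their median log2 fold change was 0.06 after R55 and 0.08 after R33. *Snx5* (38.3 to 42.2 FPKM on average from vehicle to R55) and *Snx6* (19.1 to 21.03) had the largest differences after R55, 0.14 (SE 0.08) and 0.13 (SE 0.07), with limma adjusted p-values of 0.604 and 0.589, and 0.11 and 0.08 with the length trend removed.

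Among other partners and relatives of retromer, 6 of 7 genes were tested and 0 were called after either compound, with medians of 0.01 for both, and *Vps26c*, described above, again had the largest difference after R55. *Dnajc13*, whose product RME-8 is a co-chaperone on endosomes, averaged 9.13 FPKM ± 0.457 (SD, n = 4) in vehicle and 8.13 ± 0.308 (n = 5) in R55 mice, and 5 of 5 R55 mice were below every vehicle mouse, where 2.44% of tested genes had no overlap between these groups. *Dnajc13* was named for the size of its difference after R55 within its list, so this share of unselected genes is no test of it. The log2 fold change of *Dnajc13* was -0.15 (SE 0.07, limma adjusted p = 0.582). *Dnajc13* is long (7712 bp), and with the length trend removed the difference was -0.04.

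Of the activators, inactivators and effectors of RAB7, 15 of 18 were tested and 0 were called. After R55 12 of 15 were positive, against 60.2% of all tested genes, and after R33 12 of 15, against 57.5%. The medians were 0.04 and 0.06, beside 0.03 and 0.02 for all tested genes. *Rilpl1*, a relative of the RAB7 effector RILP, was at 28.8 FPKM ± 1.44 (SD, n = 4) in vehicle and 32.3 ± 2.35 (n = 5) in R55 mice, and 4 of 5 R55 mice were above every vehicle mouse (log2 fold change 0.16, SE 0.07, limma adjusted p = 0.571, and 0.12 with the length trend removed). The share of all tested genes with 4 of 5 R55 mice beyond the vehicle range was not counted. The sterol sensor gene *Osbpl1a*, whose protein ORP1L binds RAB7, differed by 0.29 (SE 0.14, limma adjusted p = 0.589), and by 0.33 with the length trend removed.

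Of 11 retromer cargo genes 10 were tested and 0 were called. After R55 7 of 10 were negative and 3 positive (median -0.09), where 60.2% of all tested genes were positive (median 0.03). After R33 7 of 10 were negative and 3 positive (median -0.04), where 57.5% of all tested genes were positive (median 0.02). *Sorl1*, the sorting receptor of amyloid precursor protein, was at 40.4 FPKM ± 6.89 (SD, n = 4) in vehicle and 29.8 ± 1.70 (n = 5) in R55 mice, with 4 of 5 R55 mice below every vehicle mouse. The share of all tested genes with 4 of 5 R55 mice beyond the vehicle range was not counted. The log2 fold change of *Sorl1* was -0.41 (SE 0.14, limma adjusted p = 0.545). At 11243 bp *Sorl1* is among the long genes, and with the length trend removed the difference was -0.22. *Gria1*, an AMPA receptor subunit, differed by -0.46 (SE 0.24, limma adjusted p = 0.589), with a wide spread between vehicle mice (90.6 FPKM ± 41.9, SD, n = 4) and 62.3 ± 14.1 in R55 mice (n = 5). With the length trend removed *Gria1* differed by -0.40.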

How the data were processed

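RNA was measured in cortical blocks of vehicle-, R33- and R55-injected 5xFAD mice. The authors prepared stranded mRNA libraries, sequenced them paired-end, used HISAT2 to align reads to GRCm39, and deposited 1 table of FPKM for 32 libraries. The counter and annotation are not given in the sources used here. Of these libraries 27 were used, grouped by their titles, and the other 5 were not used here.

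Every value above 0 was a whole number of fragments within 0.01 (100% of values), so fragments and gene lengths were recovered. Genes averaging 1 FPKM or more were tested on log2(FPKM + 1), so fold changes of low genes are understated. limma 3.58.1 in R 4.3.3 fitted treatment and hemisphere as additive factors with an intensity trend, a two-sided test and Benjamini-Hochberg adjustment over 12976 genes, with calls at an adjusted p under 0.05. The fit was tried on simulated counts with changes planted in the R55 libraries. These counts were drawn independently for each library, without correlation within mice or a length trend, so the trial does not bear on either. Hemispheres of a mouse are paired, since they share the animal: over 13 pairs the mean correlation of deviations from group means was 0.394, from -0.0787 to 0.648. Fits in each hemisphere held the libraries of that side only. Interaction fits added treatment by hemisphere.

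The named genes were all 8 members, up to 2 genes per pathway list with the largest log2 fold change after R55 and any called gene, and the 3 genes most similar to *Vps35*, *Vps26b* and *Rab7*. The members, lists, tests and alternatives were chosen with earlier results of these data known. Alternatives covered size factors, filters, the pseudocount, within-mouse correlation (statmod 1.5.0), label length, voom, length-trend removal (lowess, span 0.3), 1 value per mouse and leaving out mice. Gene positions are from GENCODE M39 on GRCm39, promoter windows from RefSeq on GRCm38.p6. The rest was done with pandas 2.3.3, numpy 2.4.6, matplotlib 3.10.9 and scipy 1.17.1 in Python 3.11.15.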

Additional observations from a re-analysis of the deposited data

Results flagged for a closer look

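In the 48 groups checked, formed by gene, treatment and hemisphere, 4 libraries stood apart from the rest of their group. Chance gives such a library in about 1 of 20 groups. *Snx3* was at 166 FPKM (166.06) in the injected hemisphere of R33 mouse AD, where the other 4 R33 mice had 115 to 118 FPKM. *Rab7* was at 92.4 FPKM in the contralateral hemisphere of R33 mouse N, where the other 3 had 104 to 105 FPKM, and at 90.4 FPKM in the contralateral hemisphere of R55 mouse R, where the other 4 had 103 to 107 FPKM. *Vps26b* was at 20.2 FPKM in the injected hemisphere of R55 mouse R, where the other 4 had 22.1 to 22.6 FPKM. For *Snx3* the sign of the difference between hemispheres went with the compound in the mice measured. Injected minus contralateral was positive in 4 of 4 R33 mice and negative in 5 of 5 R55 mice, and the means of the groups differed by 0.25 on the log2 scale. Mice O (0.02) and R (-0.0014) lay close to 0. The difference was tested, after the values had been seen, as an interaction with the mouse as a replicate block. It did not pass adjustment over all genes (limma adjusted p = 0.403). Without the block the interaction of R55 against R33 was -0.22 (limma adjusted p = 0.875). With the length trend removed as well it was -0.10 (limma adjusted p = 0.984).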

How the results depend on the processing

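No member was called in any of the 11 comparisons under any alternative run. For the treatment and hemisphere comparisons these were 26 alternatives each, 14 of which left out 1 mouse, and the smallest adjusted p of any member in limma was 0.367 for R55, 0.412 for R33, 0.498 for R55 against R33 and 0.899 for the hemispheres. Signs of small log2 fold changes turned as follows. With the length trend removed, *Vps26b* was 0.062 and *Snx27* 0.0443 after R55, *Vps26b* was 0.0462, *Tbc1d5* 0.0435 and *Snx27* 0.0444 after R33, and *Vps26b* was 0.0158 for R55 against R33. With 1 value per mouse, *Tbc1d5* after R33 was 0.016 and *Vps26a* for R55 against R33 was 0.0145, and with the within-mouse correlation modelled they were 0.00026 and 0.0026. Without mice AD and Q, chosen after seeing the data, *Tbc1d5* was 0.05004 and *Snx27* 0.0151 after R33, *Vps26a* 0.0097 and *Rab7* 0.0182 for R55 against R33, and *Vps35* -0.0036 between hemispheres. In vehicle mice alone *Vps35* was -0.0419 between hemispheres. With the mouse as a replicate block, *Vps26a* was 0.0053 between hemispheres, and the block changed no call. Leaving out 1 mouse turned the sign of some values. After R55 the ranges were -0.0132 to 0.0809 for *Vps35*, -0.0506 to 0.0011 for *Vps26b*, -0.0496 to 0.104 for *Vps29* and -0.0778 to 0.0202 for *Snx27*. After R33 they were -0.0649 to 0.0493 for *Tbc1d5* and -0.0647 to 0.0326 for *Snx27*. For R55 against R33 they were -0.063 to 0.0152 for *Vps35*, -0.0271 to 0.0159 for *Vps26a*, -0.0189 to 0.0259 for *Vps26b*, -0.0406 to 0.0148 for *Rab7*, -0.0131 to 0.0991 for *Snx3* and -0.0399 to 0.0061 for *Snx27*. Between hemispheres they were -0.0188 to 0.0225 for *Vps35*, -0.0314 to 0.0053 for *Vps26a* and -0.0015 to 0.0473 for *Snx3*. The causes were not tested.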
